A study of Mus musculus with 5 samples.

Results

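Old-only mJunB (mouse JunB) promoter sites were the regions with an mJunB peak near a protein-coding gene in muscle stem cells (MuSCs) of aged mice that had no mJunB peak in any young library. They were selected on 3 readings of the peak lists: the aged peaks were merged where they overlapped or touched, regions that overlapped a peak of any of the 3 young libraries by at least 1 bp were left out, and regions with an edge within 3000 bp of a transcription start site (TSS) of a protein-coding gene were kept. The rule found 2995 sites among 13971 merged aged sites on chromosomes 1 to 19 and X, or 21.4%, and among 5019 aged promoter sites they were 59.7%. Absence from the young lists and nearness to a TSS were therefore used to choose them and are not results.

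The data were CUT&RUN-seq peak lists, in which an antibody directs a nuclease to the protein of interest and the released DNA is sequenced. JunB antibody was used on freshly sorted MuSCs of the Young group in 3 biological replicates and of the Aged group in 1 library, and H3K27ac was profiled in 1 further MuSC library. Exact ages, sex and strain of the CUT&RUN mice are not given in the labels, the age behind the H3K27ac library is not given, and the methods also link that library to an epigenome mapping project. The design text names vehicle- and MVC-treated (maraviroc) mice for the JunB libraries where the sample labels name young and aged mice, and the labels were followed. With 1 aged and 1 H3K27ac library there is no replicate check on either, so no test was made between ages, and each interval below is an exact binomial (Clopper-Pearson) 95% interval that covers counting error of sites only.

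JunB is a subunit of AP-1, a dimer of Jun, Fos, Maf and ATF family proteins that binds the AP-1 motif and, with some partners, the related cyclic AMP response element (CRE). AP-1 is known from enhancers as well as promoters, and it takes part in stress, inflammatory and growth responses. H3K27ac, an acetylated lysine of histone H3, marks promoters and enhancers in use, and the promoters of broadly expressed genes often lie in sequence dense in CpG dinucleotides.

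The cells were checked first. An H3K27ac peak lay within 3 kb of a TSS of 5 of 8 MuSC markers (Sdc4, Vcam1, Cdh15, Itga7 and Chodl) and was missing at Pax7, Myf5 and Calcr. Of 5 markers each, it lay at 2 endothelial, 2 fibro-adipogenic progenitor, 2 myofibre and 1 immune gene. Of all protein-coding genes 50.2% had such a peak, so these small counts do not identify the cells. The lists held 9327, 4799 and 3796 peaks in young replicates 1, 2 and 3, 13971 in the aged library and 39473 in the H3K27ac library on the chromosomes used. The lists give no read depth per library, and the weakest peak kept was at a −log10 p of 3.01 in young replicate 1 and in the aged list against 5.33 and 5.22 in young replicates 2 and 3.

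Sequences at some summits are shown as examples chosen by motif or strength. They are not a typical sample, since an AP-1 motif lay within 50 bp of 2.14% of all old-only summits. The following windows, which reach 50 bp to each side of the aged summit and written 5′ to 3′ on the plus strand of mm10 (GRCm38), are those of the 8 old-only sites with the highest −log10 p among sites with an AP-1 motif, where the window held no annotated exon. Capitals mark the motif, TGACTCA or its reverse complement TGAGTCA.
Sept9 (chr11:117331591-117331691): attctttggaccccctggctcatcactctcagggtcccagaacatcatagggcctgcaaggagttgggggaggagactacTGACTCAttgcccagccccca
Slc41a2 (chr10:83321172-83321272): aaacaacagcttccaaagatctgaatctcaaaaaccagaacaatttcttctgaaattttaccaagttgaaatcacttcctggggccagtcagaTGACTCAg
Bcl3 (chr7:19824183-19824283): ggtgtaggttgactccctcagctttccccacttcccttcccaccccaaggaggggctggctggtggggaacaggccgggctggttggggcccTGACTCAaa
Lgals3 (chr14:47371809-47371909): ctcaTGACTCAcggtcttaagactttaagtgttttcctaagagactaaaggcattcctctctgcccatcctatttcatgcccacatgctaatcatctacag
Map2k2 (chr10:81106388-81106488): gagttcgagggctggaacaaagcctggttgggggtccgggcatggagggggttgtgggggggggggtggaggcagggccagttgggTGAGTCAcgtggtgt
Dnm3 (chr1:162133557-162133657): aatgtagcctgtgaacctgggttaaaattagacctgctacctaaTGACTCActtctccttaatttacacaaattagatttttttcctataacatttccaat

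In Dnm3, which encodes a dynamin, the motif began 6 bp before the summit, and in the others it lay 30 to 46 bp away. Sept9 encodes a septin, Slc41a2 a magnesium transporter, Bcl3 an atypical IκB protein, Lgals3 galectin-3 and Map2k2 the kinase MEK2. The other 2 of these 8 sites, at Runx1 and Socs2, had exonic windows and are not printed. A pair of sites was added after the values were seen, since they lie just upstream of a SASP gene and of an AP-1 subunit gene. Here capitals mark an AP-1 motif 33 bp before the summit at Il6 and a CRE, TGACGTCA, that began 3 bp before the summit at Jund.
Il6 (chr5:30012848-30012948): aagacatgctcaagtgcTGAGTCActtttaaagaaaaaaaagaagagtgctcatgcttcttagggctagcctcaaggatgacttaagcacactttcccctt
Jund (chr8:70698688-70698788): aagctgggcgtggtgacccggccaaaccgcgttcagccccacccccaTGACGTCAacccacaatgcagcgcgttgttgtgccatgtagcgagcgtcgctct

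Of the 12 old-only sites with the highest −log10 p, 7 had a window free of annotated exons. These 7 windows, shown as the strongest peaks, carried neither motif, while the exonic window of Runx1, also among the 12, held an AP-1 motif.
Gm10800 (chr2:98665033-98665133): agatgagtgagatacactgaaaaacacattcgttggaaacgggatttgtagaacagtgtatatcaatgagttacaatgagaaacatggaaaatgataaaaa
Gm10721 (chr9:3010933-3011033): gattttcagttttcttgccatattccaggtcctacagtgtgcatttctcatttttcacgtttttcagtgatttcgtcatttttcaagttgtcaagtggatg
Dst (chr1:34123240-34123340): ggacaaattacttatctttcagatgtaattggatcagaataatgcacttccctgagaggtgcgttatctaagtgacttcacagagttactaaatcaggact
Klf16 (chr10:80577538-80577638): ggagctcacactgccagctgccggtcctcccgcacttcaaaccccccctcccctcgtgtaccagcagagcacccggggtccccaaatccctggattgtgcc
Soat1 (chr1:156474364-156474464): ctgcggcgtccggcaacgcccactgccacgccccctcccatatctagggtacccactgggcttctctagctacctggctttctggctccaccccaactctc
Kpnb1 (chr11:97188332-97188432): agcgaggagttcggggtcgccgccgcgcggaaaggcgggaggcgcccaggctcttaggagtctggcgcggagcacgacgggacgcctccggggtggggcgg
St6gal1 (chr16:23272338-23272438): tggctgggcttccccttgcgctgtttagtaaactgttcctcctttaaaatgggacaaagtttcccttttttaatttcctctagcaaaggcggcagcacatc

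Gm10800 and Gm10721, predicted genes at loci of satellite repeats, gave the site with the highest −log10 p of all (111.7, with a fold enrichment over the local background of only 4.53) and the third (30.1, with a fold of 1.90). Young peaks lay 1031 bp and 1035 bp away, and reads of such repeats cannot be placed with certainty, so both sites are reported as uncertain. Summits in repeat-masked sequence made up 8.51% of the old-only promoter sites (7.54 to 9.57%) and 8.45% of the aged promoter sites shared with young. Among single-copy genes the strongest site lay in Runx1, which encodes a runt-domain transcription factor. It spanned chr16:92825413-92825875, reached 37.3 in −log10 p and 12.2 in fold, had its summit 142 bp inside the gene in a coding exon, and held an AP-1 motif, while the nearest H3K27ac peak began 270 bp away. Next came Setd5 (a SET-domain protein, −log10 p 23.1, fold 9.11), Dst (the cytoskeletal linker dystonin, 22.8 and 8.43) and Klf16 (a Krüppel-like factor, 21.7 and 9.52), none of which overlapped H3K27ac. Pop7, a subunit of RNase P, reached 21.6 in −log10 p with a 10.1-fold enrichment and lay on H3K27ac, as did Soat1 (cholesterol esterification, 21.4 and 10.3) and Kpnb1 (importin beta, 20.7 and 8.97). Smc4 (a condensin subunit that shares its promoter with Ift80, 21.1), St6gal1 (a sialyltransferase, 19.99) and Eef1a1 (translation elongation, 21.5) lay outside H3K27ac, and the Eef1a1 site, with its summit in an annotated 3′ UTR, is uncertain because processed copies of this gene are common. Thus 3 of the 12 strongest sites overlapped H3K27ac. The nearest H3K27ac peak was 150 bp away at Klf16, 456 bp at St6gal1, 919 bp at Setd5 and 989 bp at Dst. It was 2118 bp away at Eef1a1 and 6969 bp at Smc4. These 12 do not stand for strong sites in general: of the 58 old-only sites at a −log10 p of 15 or more, 72.4% (59.1 to 83.3%) overlapped H3K27ac.

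Most old-only promoter sites were weak peaks. Their median −log10 p was 6.66 (quartiles 5.22 and 8.33) and their median fold 4.67 (4.15 and 5.58), against 11.5 and 6.43 for the 2024 aged promoter sites shared with young. The shared sites grew stronger with the number of young libraries that held them, with a median −log10 p of 8.84, 11.2 and 15.8 for 1, 2 and 3 libraries. Median width was 322 bp for old-only and 500 bp for shared sites. When all aged promoter sites were cut into 10 groups of like size by −log10 p, 90.6% of the lowest group and 5.78% of the highest were old-only. These values are tied to the choice of sites and are given as a description. Values recurred in steps: 198 old-only sites had exactly a −log10 p of 5.22 with a fold of 4.15, 194 had 6.21 with 4.67 and 154 had 7.25 with 5.19, and the 2995 sites took only 554 different −log10 p values. At a −log10 p of at least 10, 397 old-only sites remained.

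The limits of the rule passed through a continuum. Just inside 3 kb lay sites at Ppard (2997 bp from the TSS), Ndfip1 (2992 bp) and Mylk2 (2974 bp), and just outside lay sites at Plekhg5 (3001 bp), Tns1 (3006 bp) and Suclg2 (3013 bp). A young peak ended 3 bp from the old-only site at Fryl, 4 bp from that at Atp6ap1l and 8 bp from that at Ston2, while the sites at Galntl5, Naa16 and Cetn4 were classed as shared by an overlap of 2, 3 and 4 bp. Such closeness was uncommon: 86 old-only sites (2.87%) had a young peak within 500 bp and 452 (15.1%) within 10000 bp.

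**Figure D1:**
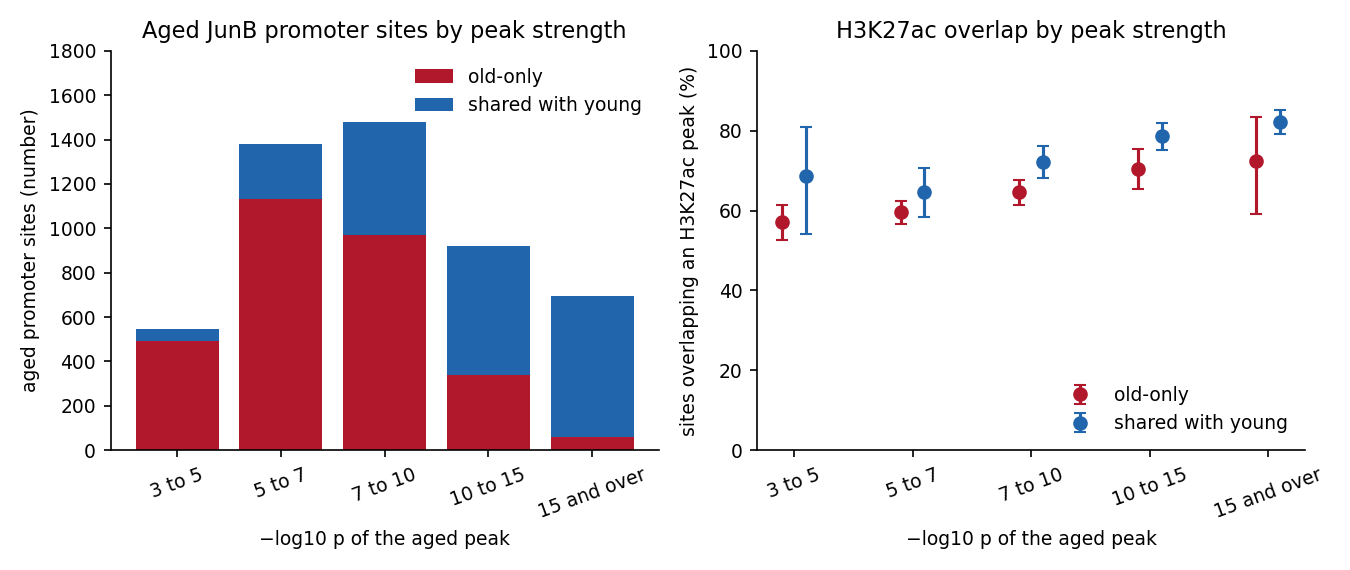
Left, number of aged promoter sites in each range of −log10 p, split into old-only (red) and shared with young (blue). Right, share of sites overlapping an H3K27ac peak in the same ranges, with exact 95% binomial intervals as bars; it rose from 57.1% to 72.4% in old-only sites and stayed below the shared sites in each range, with overlapping intervals in some.

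H3K27ac overlapped 1866 of the 2995 old-only promoter sites, or 62.3% (60.5 to 64.0%). The shared aged promoter sites had 76.2% (74.3 to 78.1%), the 5430 old-only sites away from promoters 21.9% (20.8 to 23.0%), and the 657 young promoter sites without an aged peak 46.4% (42.6 to 50.3%). Old-only minus shared promoter sites gave -13.9 percentage points. Peak strength moved with it: at a −log10 p from 5 to 7 the shares were 59.6% (56.7 to 62.5%) for old-only and 64.7% (58.4 to 70.6%) for shared sites, from 7 to 10 they were 64.6% (61.5 to 67.6%) and 72.3% (68.2 to 76.1%), and from 10 to 15 they were 70.5% (65.3 to 75.3%) and 78.7% (75.1 to 82.0%). With the same number of strongest peaks taken from each JunB list (3796, the size of the smallest), the rule found 639 old-only promoter sites. Of these 74.0% were on H3K27ac, with a difference of -6.83 percentage points from shared sites. Weaker young peaks were dropped as well, so not all of these sites are among the 2995. The part of peak strength in the difference was not tested further. Where an H3K27ac peak was present its enrichment was alike, with a median fold of 4.34 (quartiles 3.58 and 5.20) at old-only sites and 4.25 (3.46 and 5.17) at shared sites.

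**Figure D2:**
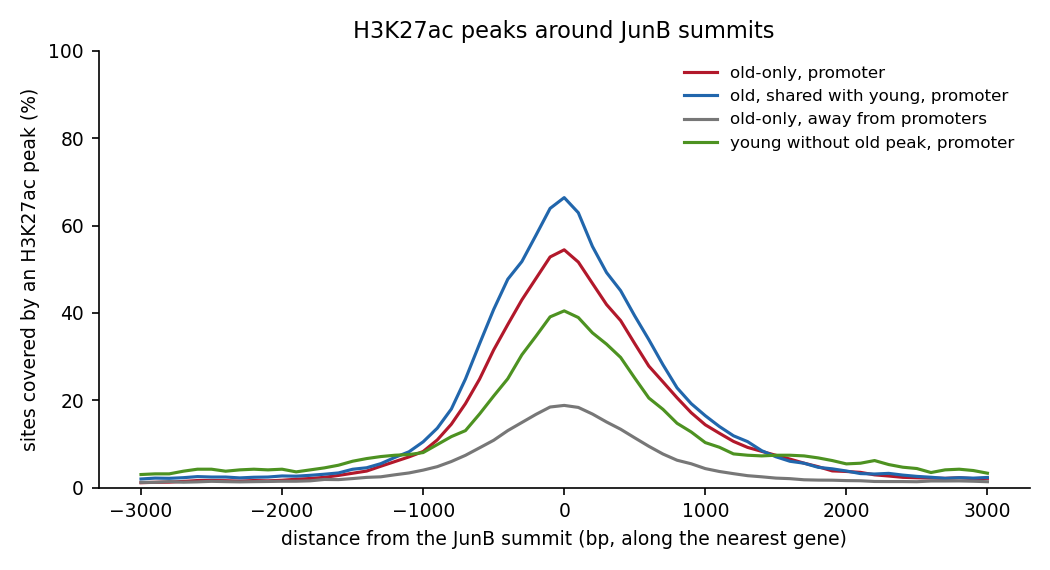
Share of sites covered by an H3K27ac peak (y axis, %) against distance from the mJunB summit along the nearest gene (x axis, bp, in steps of 100 bp) in 4 sets of sites. Coverage was highest at the summit in each set, at 54.5% for old-only promoter sites, 66.4% for shared promoter sites, 40.5% for young promoter sites without an aged peak and 18.9% for old-only sites away from promoters.

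The old-only sites on and off H3K27ac differed in typical position and sequence, though not as separate classes. The summit lay within 500 bp of a TSS in 85.9% of the sites on H3K27ac and 55.4% of those off it. Those on H3K27ac had their summit a median of 145 bp from a TSS, 65.1% (62.9 to 67.3%) lay in CpG-dense sequence, and 19.99% (18.2 to 21.9%) had more than 1 protein-coding gene within 3 kb. The 1129 sites off H3K27ac lay a median of 386 bp from a TSS, 36.2% (33.4 to 39.1%) were CpG-dense and 8.24% (6.70 to 9.996%) had several genes. Their median −log10 p was 6.21 against 6.87 on H3K27ac, and 325 of them (28.8%) had an H3K27ac peak within 1000 bp. The lower share than at shared sites was seen in both sequence classes: among CpG-dense sites 74.8% (72.6 to 76.9%) of old-only and 83.2% (80.8 to 85.5%) of shared sites overlapped H3K27ac, and among the others 47.5% (44.8 to 50.2%) and 69.7% (66.8 to 72.4%) did. The sites on the H3K27ac peaks of highest fold were at Gm32687 (H3K27ac fold 10.6, mJunB fold 6.58) and Zfp433 (9.65 and 5.71), which lie in a cluster of zinc finger genes, at Rwdd2b with 2 old-only sites under 1 peak (9.01), at Blm, the helicase mutated in Bloom syndrome (8.96), at Nudt8 (8.94), at Dhodh, an enzyme of pyrimidine synthesis (8.74), and at Wdr46 (8.56). In these 8 sites the mJunB −log10 p ranged from 4.83 at Blm to 13.6 at Nudt8, and none of them was among the 12 strongest. At Gm32687 and Zfp433 the sequence within 150 bp of the summit had the same GC (66.4%) and the same observed to expected CpG (0.823). Whether these 2 loci are copies of 1 sequence was not tested, so both sites are reported as uncertain.

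Old-only sites lay near the TSS, much as shared sites did. The summit was a median of 198 bp from the nearest TSS, 46.9% (45.1 to 48.7%) of the sites covered a TSS and 74.4% (72.8 to 75.9%) had the summit within 500 bp. For shared aged sites the summit was a median of 243 bp away, 49.0% (46.8 to 51.2%) covered a TSS and 70.1% (68.1 to 72.1%) had the summit within 500 bp, and for young promoter sites without an aged peak the distance was 844 bp and the share within 500 bp 41.4% (37.6 to 45.3%). Upstream summits made up 52.8% of old-only sites. By annotation at the summit, 703 sites lay in a 5′ UTR, 930 in an intron, 870 outside protein-coding transcripts, 191 in a coding exon, 26 in a 3′ UTR and 275 in another exon. CpG-dense sequence (GC over 50% and observed to expected CpG over 0.6 within 150 bp of the summit) held 54.2% (52.4 to 56.0%) of old-only sites, 48.4% (46.2 to 50.6%) of shared sites, 18.1% (15.2 to 21.3%) of young promoter sites without an aged peak and 3.74% (3.25 to 4.28%) of old-only sites away from promoters.

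**Figure D3:**
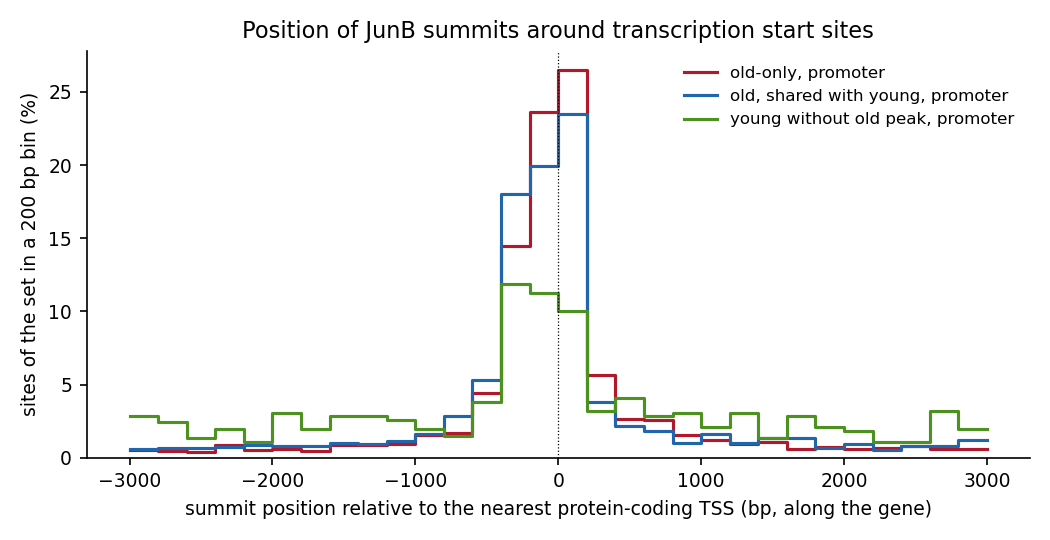
Share of sites (y axis, %) by summit position in 200 bp bins along the gene from the nearest protein-coding TSS (x axis, bp) for old-only, shared and young-without-aged promoter sites. The bin from 0 to 200 bp held 26.5% of the old-only sites, 23.5% of the shared sites and 10.05% of the young sites without an aged peak.

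The AP-1 motif was rare at old-only promoter sites. It lay within 50 bp of 64 summits, or 2.14% (1.65 to 2.72%), against 1.20% in windows of the same length 500 bp to each side and 1.27% at the starts of all protein-coding genes. Shared promoter sites had 3.66% (2.88 to 4.57%), old-only sites away from promoters 3.28% (2.82 to 3.79%) and young promoter sites without an aged peak 5.78% (4.13 to 7.85%). Within the old-only sites the motif was found at 3.63% (2.62 to 4.89%) of those off H3K27ac and 1.23% (0.783 to 1.84%) of those on it. It was found at 3.79% (2.85 to 4.94%) of sites outside CpG-dense sequence, where flanks had 1.495%, and at 0.739% (0.382 to 1.29%) of CpG-dense sites, where flanks had 0.954%. Outside CpG-dense sequence the on and off values were 2.61% (1.53 to 4.15%) and 4.86% (3.41 to 6.70%), with overlapping intervals. The ETS motif CCGGAAG was found at 4.21% (3.52 to 4.99%) of old-only summits, 1.59% of their flanks, 2.62% (1.97 to 3.41%) of shared summits and 6.70% of gene starts, and the SP/KLF motif GGGCGGG at 10.9%, 5.48%, 8.94% and 18.4%. CCAAT (NF-Y) was at 12.8% of old-only summits and 10.2% of flanks, CAGCTG (an E-box) at 5.28% and 4.79%, AAGATGG (YY1) at 2.003% and 1.62%, GCGCATGC (NRF1) at 0.735% and 0.284%, and the CRE at 0.467% and 0.184%. All motifs were sought on both strands, and a match is a description of the letters and not a binding site.

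**Figure D4:**
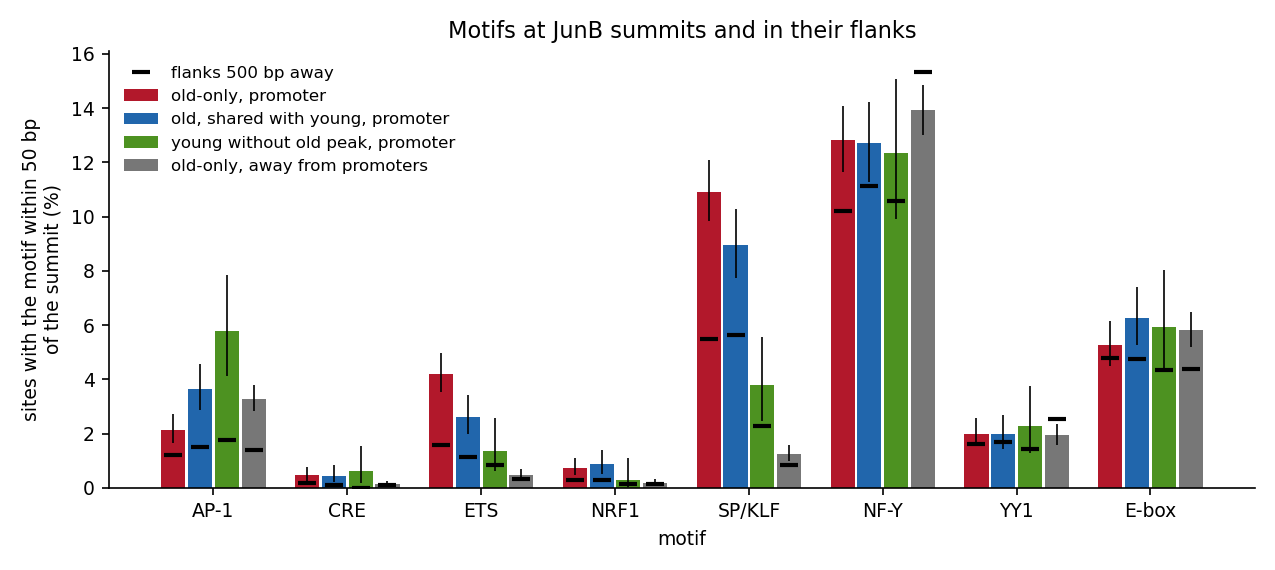
Share of sites (y axis, %) with each motif within 50 bp of the summit, in 4 sets of mJunB sites (bars, with exact 95% binomial intervals), and in flanking windows of the same length 500 bp away (black dashes). In old-only promoter sites the ETS (4.21% against 1.59%), SP/KLF (10.9% against 5.48%) and NF-Y (12.8% against 10.2%) bars stood above their flanks. In percentage points each stood higher above them than the AP-1 bar (2.14% against 1.20%), but motifs with different base rates are not compared by this. The AP-1 bar was the lowest of the 4 sets.

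At the level of genes, 3290 of 21755 protein-coding genes (15.1%) had an old-only site within 3 kb of a TSS. Of the 2995 sites, 2529 had 1 such gene, 434 had 2, 26 had 3 and 6 had more, so a site at a shared promoter was counted for each gene. Most genes had 1 site, 172 had 2 and 20 had 3. Fosl2, an AP-1 subunit gene, Bcl3, Tnip1, a binding partner of the NF-kB inhibitor A20, Daxx, a histone chaperone, and Rarg, a retinoic acid receptor, were among those with 3 and were picked from the 20 after their values were seen. A young peak elsewhere within 3 kb of a TSS was held by 417 of the genes (12.7%): 350 had one in young replicate 1, 236 in replicate 2 and 162 in replicate 3. The remaining 2873 genes had no young peak near any TSS, and without young replicate 1 the share with a young peak was 8.59%. H3K27ac within 3 kb of a TSS marked 2825 of the 3290 genes (85.9%) against 10921 of all protein-coding genes (50.2%). Read the other way, 25.9% of the genes with H3K27ac and 4.29% (3.92 to 4.69%) of the genes without it had an old-only site. Genes with a CpG-dense start had one in 22.5% (21.7 to 23.3%) and other genes in 8.31% (7.81 to 8.84%). Divergent gene pairs with starts within 1000 bp had one in 29.99% (27.7 to 32.4%) and other genes in 14.0% (13.6 to 14.5%), where the pair can share a site. By chromosome the share ran from 19.6% on chromosome 15 to 6.54% on chromosome X. Shared aged promoter sites had the same contrasts by H3K27ac and CpG density. They lay at 18.9% of genes with H3K27ac and 1.44% of genes without it. For genes with a CpG-dense start the share was 15.6%, and for other genes 5.17%.

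Gene lists were read against those 2 shares, 15.1% of all protein-coding genes and 25.9% of those with H3K27ac. Of 30 lists 25 lay above the first, with the interval wholly above it in 13 and wholly below it in 1. Among the 29 lists with at least 10 genes with H3K27ac, 20 lay above the second. The lists were chosen with earlier results of these data known, and the counts are descriptions. Shared aged promoter sites lay at 10.2% of all protein-coding genes, and the lists held them as well. Chaperones and translation factors each had shared sites in 16 genes and old-only sites in 16. Immediate-early genes had 15 and 14, and AP-1 genes 8 and 6. Spliceosome genes had 7 and 18, tRNA synthetases 7 and 14, and ribosomal protein genes 12 and 29. High shares were thus not in every list particular to old-only sites.

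**Figure D5:**
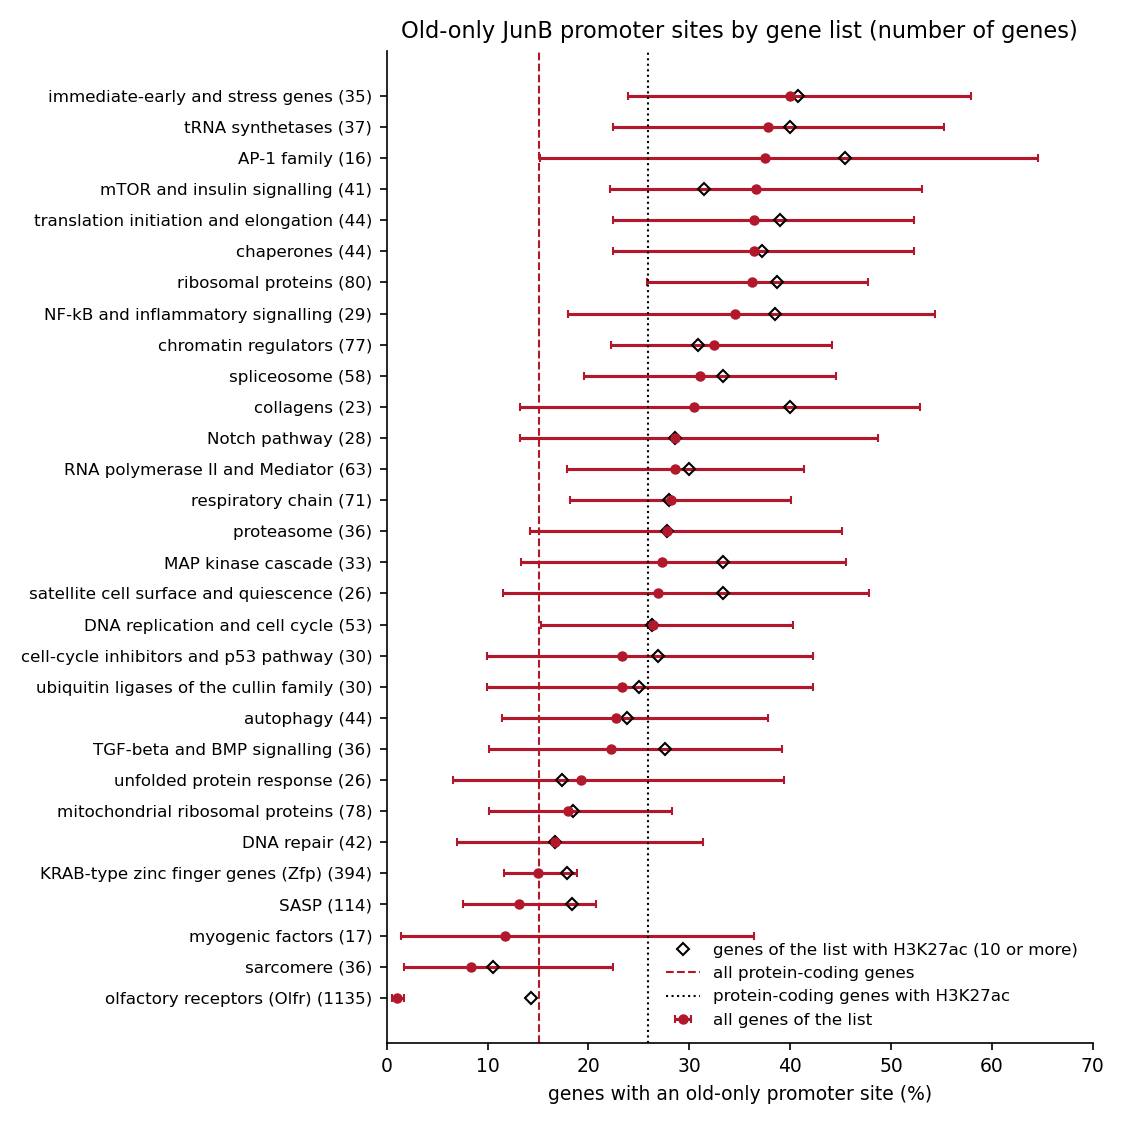
Share of the genes of each list (x axis, %; number of genes in brackets) with an old-only promoter site, with exact 95% binomial intervals (red), and the same share among the genes of the list with H3K27ac (black diamonds, lists with 10 or more). The dashed red line marks all protein-coding genes (15.1%) and the dotted black line those with H3K27ac (25.9%); olfactory receptor genes lay far below at 0.969% and immediate-early genes highest at 40%.

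Genes of protein synthesis had among the highest shares, and most of their sites lay on H3K27ac. Cytosolic ribosomal protein genes had an old-only site in 29 of 80 cases (36.3%, 25.8 to 47.8%), 27 of them on H3K27ac and none with a young peak near a TSS. Of all genes with an old-only site 87.3% had no such young peak, and 13 of the 80 ribosomal protein genes did. Examples were Rpl7l1 (a ribosomal protein-like gene, −log10 p 14.2, fold 8.30), Rps6 (the small-subunit protein phosphorylated downstream of mTOR, 12.8 and 7.67), Rpl15 (10.4 and 6.43) and Rps27l (9.44 and 6.23). Translation factors had one in 16 of 44 (36.4%), including Eef1d (11.4), Etf1, the release factor (10.7), and Eif2b3 (9.69). Aminoacyl-tRNA synthetases had one in 14 of 37 (37.8%), including Ears2 (11.8), Yars (9.57), Vars2 (9.44) and Sars (9.43). Mitochondrial ribosomal protein genes were nearer to the background, at 14 of 78 (17.9%, 10.2 to 28.3%), with Mrps34 the strongest (13.4). Among genes with H3K27ac the shares were 38.7% for ribosomal proteins, 39.0% for translation factors, 40% for synthetases and 18.4% for mitochondrial ribosomal proteins.

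Other housekeeping lists ranged from shares as high as these to shares near the background. Chaperone genes had an old-only site in 16 of 44 (36.4%), with Dnaja1, an Hsp70 co-chaperone, the strongest (12.3), followed by Dnaja3 (8.47), the small heat-shock protein gene Hspb1 (8.35) and Cct2 of the chaperonin ring (8.33). Spliceosome genes had one in 18 of 58 (31.0%), led by Prpf4 (16.1) and the splicing factor Srsf1 (15.4). RNA polymerase II and Mediator genes had one in 18 of 63 (28.6%), with Cdk9, the elongation kinase (15.3), and Med11 of Mediator (9.19). A young peak lay near a TSS of 4 of these 18 genes, Cdk9 among them, and of 3 of the 18 spliceosome genes, Prpf4 among them. For the respiratory chain the count was 20 of 71 (28.2%), with Ndufa13 of complex I (19.8) and Atp5b of ATP synthase (14.3). None of the 20 had a young peak near a TSS, while 11 of all 71 did. Proteasome genes had 10 of 36 (27.8%), led by Psmd3 (13.2), and autophagy genes 10 of 44 (22.7%), led by the kinase gene Ulk1 (11.7). The cullin ligase list, at 7 of 30 (23.3%), held the strong sites of Cand1, an exchange factor of cullin complexes (19.8, fold 9.70), and Rbx1, their RING subunit (17.1 and 8.67). In these lists the strongest site of a gene lay on H3K27ac in 14 of 16 chaperone, 16 of 18 spliceosome, 16 of 18 polymerase, 17 of 20 respiratory chain, 9 of 10 proteasome and 9 of 10 autophagy genes, and in 4 of 7 cullin ligase genes. The intervals of the proteasome (14.2 to 45.2%), autophagy (11.5 to 37.8%) and cullin ligase (9.93 to 42.3%) lists held the 15.1% of all genes. Among genes with H3K27ac the shares were 37.2% for chaperones, 33.3% for the spliceosome and 30% for RNA polymerase II and Mediator. They were near the 25.9% of all such genes for the respiratory chain (27.9%), the proteasome (27.8%), cullin ligases (25%) and autophagy (23.8%).

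Signalling and stress lists also had shares above 15.1%, not all of them beyond their intervals, and more of their sites lay off H3K27ac. The list counts take the strongest site of each gene, and of all old-only promoter sites 62.3% overlapped H3K27ac. Immediate-early and stress genes had an old-only site in 14 of 35 (40%, 23.9 to 57.9%), 7 of them on H3K27ac. Socs3, the cytokine feedback inhibitor, had a 6.60-fold site (−log10 p 13.5) with H3K27ac, and the nuclear receptor genes Nr4a3 (8.67), Nr4a1 (8.47) and Nr4a2 (8.20) had sites without it. NF-kB and inflammatory signalling genes had one in 10 of 29 (34.5%), namely Tnip1 (11.5), Birc2 of the TNF receptor complex (10.4), Nfkb1 (10.1) and the adaptor gene Myd88 (9.04) among the strongest. For mTOR and insulin signalling the count was 15 of 41 (36.6%), led by Lamtor1 (13.0) and Lamtor3 (11.8) of the lysosomal Ragulator complex, Pik3r2 (10.4) and Stk11 (9.73). The MAP kinase cascade had 9 of 33 (27.3%), with Map3k14 (11.996), Map2k7 (11.9), Map3k2 (10.3) and Map2k2 (10.2), and in 1 of the 9 genes the site lay on H3K27ac. TGF-beta and BMP signalling had 8 of 36 (22.2%), of which 1, Smad6 (8.31), was on H3K27ac, and Smad3 (9.33), Tgfb3 (8.38) and Bmp4 (6.84) were not. Notch pathway genes had 8 of 28 (28.6%), with Notch4 (9.06), Numb, a Notch inhibitor (7.67), the coactivator gene Maml1 (7.25) and Adam10, a Notch protease (6.84). The intervals of the MAP kinase (13.3 to 45.5%), TGF-beta and BMP (10.1 to 39.2%) and Notch (13.2 to 48.7%) lists held the 15.1% of all genes. Most genes with an old-only site in these lists had H3K27ac within 3 kb of a TSS, also where the site did not overlap it. The counts were 11 of 14 immediate-early, 10 of 10 NF-kB and 11 of 15 mTOR genes. For MAP kinase genes the count was 8 of 9, for TGF-beta genes 8 of 8 and for Notch genes 6 of 8. Of all genes with an old-only site 85.9% had such a peak. Among genes with H3K27ac the shares were 40.7% for immediate-early, 38.5% for NF-kB, 33.3% for MAP kinase, 31.4% for mTOR, 28.6% for Notch and 27.6% for TGF-beta genes, against 25.9%. A young peak lay near a TSS of 4 of the 14 immediate-early genes, Nr4a2 among them, and 4 of the 10 NF-kB genes, Birc2 among them. It lay at 3 of 15 mTOR, 2 of 8 TGF-beta (with Smad3), 1 of 9 MAP kinase and 0 of 8 Notch genes. Of all genes with an old-only site 12.7% had one.

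Genes of AP-1 subunits themselves had old-only sites in 6 of 16 cases (37.5%, 15.2 to 64.6%). Junb had an old-only site at chr8:84977478-84978340, in its coding exon 670 bp after the TSS (−log10 p 13.9, fold 5.13), and also a young peak near its TSS. Fos (8.15) had a young peak near a TSS as well. Mafg (11.5), Jund with the CRE shown above (11.4), Fosl2 (7.22) and Atf2 (6.21) had none. Mafg, Jund and Atf2 sites lay on H3K27ac, with folds of 4.66, 3.50 and 3.66, and the Junb, Fos and Fosl2 sites did not.

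Of the 114 genes of the senescence-associated secretory phenotype (SASP), the secreted and surface factors of senescent cells from a list that the study chose, 15 had an old-only promoter site (13.2%, 7.56 to 20.8%), which was near the background. Among the 49 SASP genes with H3K27ac the count was 9 (18.4%) against 25.9% of all such genes. Strong sites were those of Tnfrsf1a, the TNF receptor (−log10 p 11.9, fold 6.89, summit at -2355 bp from the TSS), and of the death receptor gene Fas (9.10 and 5.61). Tgfb3 (8.38), the chemokine gene Cxcl1 (7.73, at -168 bp), the decoy receptor gene Tnfrsf23 (7.25) and Ccl25 (7.24) followed. Il6, the cytokine interleukin-6, had a site at chr5:30012820-30013153, its summit at -216 bp (−log10 p 6.87, fold 4.79), around the AP-1 motif shown above. Bmp4 (6.84), Ccl27a (6.32), Igfbp6 (6.21), Il7 (6.21), Tnf (5.93), Cxcl10 (4.98) and Gdf15 (4.84) had weaker sites. Those of Tnfrsf1a, Fas, Cxcl1, Ccl25, Ccl27a and Il7 lay on H3K27ac, with folds of 2.84 to 4.62, and the other 9 did not. A young peak near a TSS was present at Gdf15 alone among the 15, and at 15 of all 114 SASP genes. With the same number of strongest peaks per list, 2 SASP genes were left, Tnfrsf1a among them (1.75%), against 3.52% of all protein-coding genes.

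At that equal number the counts of the other lists fell unevenly. AP-1 family genes had 5 of 16 (Fosl1, Junb, Jund, Mafg and Mafk), chromatin regulators 10 of 77 (13.0%), NF-kB signalling 5 of 29 (17.2%), the MAP kinase cascade 5 of 33 (15.2%) and ribosomal proteins 4 of 80 (5%, 1.38 to 12.3%), against the 3.52%. Immediate-early and stress genes, the highest list with all peaks, fell to 2 of 35 (5.71%, 0.70 to 19.2%), chaperones to 2 of 44 (4.55%), autophagy genes to 1 of 44 (2.27%) and mitochondrial ribosomal protein genes to 1 of 78 (1.28%). Notch, TGF-beta, cell-cycle inhibitor, collagen and sarcomere genes had none. Fosl1 and Mafk did not have old-only sites with all peaks and entered because weaker young peaks had been dropped. Some of the genes counted here for NF-kB signalling, chromatin regulators, DNA replication, the spliceosome, the proteasome, chaperones and ribosomal proteins entered in the same way. These counts are thus not only genes kept from the full lists.

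Chromatin, cell-cycle and muscle genes completed the lists. Chromatin regulators had an old-only site in 25 of 77 (32.5%, 22.2 to 44.1%), led by the deacetylase gene Hdac6 (14.2), the remodeller gene Smarca5 (13.1), Ezh2, the H3K27 methyltransferase (12.9), and the acetyltransferase gene Kat2b (11.8). Of these 25 genes 6 had a young peak near a TSS, Kat2b among them. DNA replication and cell-cycle genes had 14 of 53 (26.4%), with Gins2 (14.1), Mcm4 (13.4, at a promoter shared with Prkdc), Mcm3 (11.8) and Mcm7 (10.2) of the replicative helicase. Cell-cycle inhibitor and p53 genes had 7 of 30 (23.3%), with Hmgb1 (7.38), Sesn1 (7.03), Rb1 (6.21) and Hmgb2 (5.69), DNA repair genes 7 of 42 (16.7%), led by Prkdc, and the unfolded protein response 5 of 26 (19.2%), led by Derl1 (10.6). Satellite cell surface and quiescence genes had 7 of 26 (26.9%, 11.6 to 47.8%), with Vcam1, the surface protein used to sort these cells, at 6.27, Hey1 at 6.21, Rb1 at 6.21 and the integrin gene Itgb1 at 6.14. Myogenic factors had 2 of 17 (11.8%), Eya2 (10.2) and Mef2c (4.27), neither on H3K27ac, and sarcomere genes 3 of 36 (8.33%), Tpm3 (7.29), Mybpc2 (4.90) and Myl4 (4.83). Collagen genes had 7 of 23 (30.4%, 13.2 to 52.9%), of which 4 had a young peak near a TSS, with Col16a1 (8.33), Col1a1 (7.84), Col4a1 (6.48) and Col18a1 (6.21). Zinc finger genes named Zfp stood at the background of all genes with 59 of 394 (14.97%), 51 of them on H3K27ac and led by Zfp41 (14.6). Among those with H3K27ac 57 of 319 (17.9%) had a site, below the 25.9% of all such genes. Olfactory receptor genes, which serve smell, had 11 of 1135 (0.969%, 0.485 to 1.73%), with Olfr433 the strongest (10.4). The intervals of the cell-cycle inhibitor (9.93 to 42.3%), DNA repair (6.97 to 31.4%) and unfolded protein (6.55 to 39.4%) lists held the 15.1% of all genes. Among genes with H3K27ac, replication (26.3%) and inhibitor genes (26.9%) were near the 25.9%. Collagens (40%), satellite cell genes (33.3%) and chromatin regulators (30.9%) lay above it. Unfolded protein (17.4%), repair (16.7%) and sarcomere genes (10.5%) lay below.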

How the data were processed

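Per the submitters' processing notes and the methods, Bowtie2 placed the reads on mm10, duplicates were removed, and MACS2 listed the peaks of each library at a p cutoff. Versions and a control library are not given in the sources used here. The deposited lists give each peak's fold enrichment, a ratio over the local background of its own library, and its −log10 p and −log10 q, here used for ranking and thresholds alone. Peaks carry no counts, so the lists give no depth per library. The study's reporting form states 1 read total for its JunB CUT&RUN without naming the library, and it was not used here.

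Aged peaks were merged at a gap of 0 bp and compared with the young lists, GENCODE M21 starts and merged H3K27ac peaks by an overlap of at least 1 bp. Every transcript start of a protein-coding gene counted as a TSS. Sequence came from the RefSeq GRCm38 genome, in which 32619 of 32619 RefSeq promoters matched their coordinates. Repeats are its soft-masked bases. Motif windows reached 50 bp to each side. Python 3.11.15, numpy 2.4.6, pandas 2.3.3, scipy 1.17.1, pysam 0.24.0 and matplotlib 3.10.9 were used, and merging, overlap, distance and motif functions were tested on simulated data and against bedtools 2.31.1.

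Sites named were the 12 with the highest −log10 p, the 8 with the highest H3K27ac fold, up to 8 with an AP-1 motif by −log10 p, every SASP gene, up to 4 genes by −log10 p of each other list and 3 sites at each side of a limit. The sites and lists were chosen with earlier results of these data known. The SASP list is the study's. Some genes that this rule names are counted but not reported by name here. Alternatives covered the young set, thresholds, numbers of peaks, promoter and TSS definitions, merging and, for H3K27ac, AP-1 and CpG, their own windows. Leaving out sites in repeats and the list counts at an equal number of peaks were added after the data were seen.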

Additional observations from a re-analysis of the deposited data

How the results depend on the processing

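No paired analysis was possible because the single aged library carries no replicate number and no test was made. With 1 aged and 1 H3K27ac library nothing shows how far the values would vary between samples, and peaks without counts give no depth. Leaving out a young replicate gave 3055 to 3502 sites, 3354 to 3797 genes, 15 to 18 SASP genes, 62.7 to 63.3% of sites on H3K27ac with a difference of -15.3 to -13.1 percentage points from shared sites, 2.11 to 2.24% with an AP-1 motif, 53.4 to 54.6% in CpG-dense sequence and 8.59 to 12.1% of genes with a young peak. The difference kept its sign in every alternative. The same number of strongest peaks per JunB list gave 639 sites, 765 genes, 2 SASP genes, 74.0% on H3K27ac, a difference of -6.83, 1.25% with AP-1, 66.7% CpG-dense and 8.76% of genes with a young peak. Requiring 2 young libraries for a young region gave 64.2% on H3K27ac and 6.54% of genes with a young peak, and no young peak within 500 bp gave 10.4% of genes. A −log10 p of 5.33 in all JunB lists gave 64.8% on H3K27ac and 58.6% CpG-dense, and a −log10 q of 2 gave 56.6% CpG-dense. A promoter of 1000 bp gave 68.0% on H3K27ac, 1.42% with AP-1, 61.6% CpG-dense and 7.73% of genes. With 1 TSS per gene these were 67.3% on H3K27ac, 62.2% CpG-dense and 5.91% of genes. Genes of every type gave 56.6% on H3K27ac, a difference of -17.6, 47.1% CpG-dense and 11.4% of genes. The stronger part of the H3K27ac peaks, split at their median −log10 p, gave 46.8%. With most of a site covered (50% or more) the share was 55.5% and the difference -11.3, and with H3K27ac within 500 bp the share was 68.8%. AP-1 within 100 bp gave 5.18%, and CpG counted within 500 bp of the summit gave 57.1%. Without sites in repeats 56.9% were CpG-dense. The cause of these shifts was not tested. All other values stayed within 1.5 times the count or inside the interval of the share.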
